A study of Mus musculus with 1 sample.

Results

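The mRNAs of 5 genes that encode poly(A)-binding proteins and the factors that regulate them were described in wild-type mouse 24h-EpiLCs, epiblast-like cells that are leaving naïve pluripotency for the formative state. The genes were *Pabpc1*, *Pabpc4*, *Pabpn1*, *Paip1* and *Paip2*. They were taken by symbol, from the GENCODE vM21 annotation of the GRCm38 (mm10) build, out of 12835 genes that had at least 1 read of at least 7 passes. The cells were of the ICR strain and had been kept for 24 h in N2B27 medium with 1% KSR, bFGF at 12 ng/ml and activin A at 20 ng/ml. Total RNA was profiled by PAIso-seq, in which full-length cDNA is copied together with the poly(A) tail, made circular and read in repeated passes on the PacBio platform. The single sample held 2 replicates marked by barcodes, which were numbered 1 and 2 by barcode since the labels did not link them to replicate numbers. Nothing in the labels told whether they came from separate cultures. Cells without the deadenylase Cnot8 were not analysed here, so no comparison between conditions was possible.

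A poly(A) tail acts through the proteins bound to it. In the nucleus, Pabpn1 binds the growing tail and stimulates poly(A) polymerase. In the cytoplasm, Pabpc1 and its paralog Pabpc4 coat the tail, contact the translation initiation factor eIF4G at the cap end of the mRNA, and are the surface on which deadenylases such as Pan2-Pan3 and, through Tob proteins, the Ccr4-Not complex are recruited. Paip1 binds Pabpc1 and stimulates translation, whereas Paip2 and its paralog Paip2b bind Pabpc1, release it from the tail and inhibit translation. These mRNAs are themselves polyadenylated, so the machinery that reads tails can be examined on the tails of its own transcripts.

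Tails were mostly plain runs of A, and about 1 tail in 10 held another base. To show what such a tail looks like, single reads with at least 15 passes and a tail of 20 to 60 nt were chosen for the largest number of passes. The tails are written from 5′ to 3′ as DNA, with the bases other than A in capitals and T standing for U in the RNA. Of *Pabpc1*, 43 tails met these limits, and 4 are shown for an internal T, a C, an internal G and a T at the last base. The single tail of *Pabpc4* that met them follows.
Pabpc1, T at base 25 of 26, 153 passes: aaaaaaaaaaaaaaaaaaaaaaaaTa
Pabpc1, C at base 49 of 49, 88 passes: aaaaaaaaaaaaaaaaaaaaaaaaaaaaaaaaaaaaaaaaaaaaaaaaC
Pabpc1, G at base 53 of 57, 140 passes: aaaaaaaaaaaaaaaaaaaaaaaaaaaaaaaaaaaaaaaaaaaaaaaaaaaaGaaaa
Pabpc1, T at base 53 of 53, 71 passes: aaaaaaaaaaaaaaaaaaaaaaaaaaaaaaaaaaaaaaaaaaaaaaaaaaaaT
Pabpc4, T at base 40 of 41, 43 passes: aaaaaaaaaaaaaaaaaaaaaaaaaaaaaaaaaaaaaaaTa

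Tails were deposited for 378458 reads of replicate 1 and for 635217 of replicate 2. Of these, 246316 and 455660 had at least 7 passes and came from nuclear genes, and each is counted below as 1 transcript. The median number of passes was 35 in both replicates. The 3 counts taken as a detection floor corresponded to 12.2 and 6.58 counts per 1000000 nuclear transcripts (CPM). All 7 markers of pluripotent and epiblast-like cells had at least 10 transcripts, with 445 and 665 summed transcripts in replicates 1 and 2. Of 5 markers of naïve ESCs, 4 did, with 155 and 418 summed over the 5. Most of these came from *Zfp42*, with 129 and 372. *Esrrb* had 20 and 20, *Tfcp2l1* 3 and 18, *Nanog* 3 and 7, and *Klf4* 0 and 1. Markers of other cells had few transcripts. The summed transcripts were 0 and 1 for 4 endoderm and mesoderm markers, of which *Sox17*, *Gata4* and *T* were at 0. They were 1 and 1 for 4 fibroblast markers, of which *Col1a1*, *Col1a2* and *Lum* were at 0. They were 5 and 0 for 2 neural markers, and 2 and 13 for 2 trophoblast markers, all from *Krt8*, which thus reached 10 transcripts, with *Cdx2* at 0.

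The 5 genes were read at very different depth. Together they gave 2616 transcripts, 879 in replicate 1 and 1737 in replicate 2, and *Pabpc1* alone gave 1993 of them. *Pabpc1* had 623 and 1370 transcripts, or 2529 and 3007 CPM, which placed it at rank 17 of 12816 nuclear genes by transcript number. *Paip2* came next with 210 and 306 transcripts, or 853 and 672 CPM, at rank 187. *Pabpc4* had 45 and 58 transcripts, or 183 and 127 CPM, at rank 1470. The order of the 3 genes was the same in each replicate and their values did not overlap. The method is built on full-length cDNA, so these levels were not divided by transcript length. Whether reads covered whole transcripts was not tested, nor was any part of transcript length in the levels. In a bulk sample, fewer cells with a transcript and less of it per cell cannot be told apart.

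*Pabpn1* and *Paip1* were at or under the detection floor. *Pabpn1*, the nuclear poly(A)-binding protein gene, had 0 transcripts in replicate 1, where a count of 0 allows up to 12.2 CPM, and 1 in replicate 2. That transcript had a tail of 99 nt, with no base other than A, and was read in 10 passes. *Pabpn1* lies on chromosome 14 from 54892500 to 54898169 on the plus strand, and the annotated gene *Gm20521* overlaps it on the same strand over 5638 nt and had 0 transcripts. Whether reads that fit both genes were left unassigned by the gene counting was not tested. *Paip1*, the gene of the stimulating partner, lies on chromosome 13 from 119428601 to 119458218 on the plus strand and is overlapped by no annotated gene. It had 1 transcript in replicate 1 and 2 in replicate 2, with tails of 1 nt in the first and of 1 and 3 nt in the other. No tail length was therefore given for either gene, and the planned comparison of *Paip1* with *Paip2* could not be made.

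The tail length of a gene was taken as the geometric mean over its transcripts, with bases other than A included, for genes whose pooled replicates gave 10 or more. By this limit 3 of the 5 genes had a tail length, beside 30.7% of all protein-coding genes of the annotation, and 7146 nuclear genes in all. The median gene tail length was 76.4 nt with both replicates pooled, 78.0 nt in replicate 1 and 76.8 nt in replicate 2. *Pabpc4* lay above the median in both replicates, while *Pabpc1* and *Paip2* lay below it in both. Among 4286 genes that reached 10 transcripts in each replicate, 35.7% lay above it in both and 33.4% below it in both, so the sides on which 3 genes fell are given as a description only. *Pabpc1* and *Paip2* had longer tails in replicate 1 than in replicate 2 and *Pabpc4* had shorter ones, and 52.9% of the 4286 genes were longer in replicate 1.

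**Figure D1:**
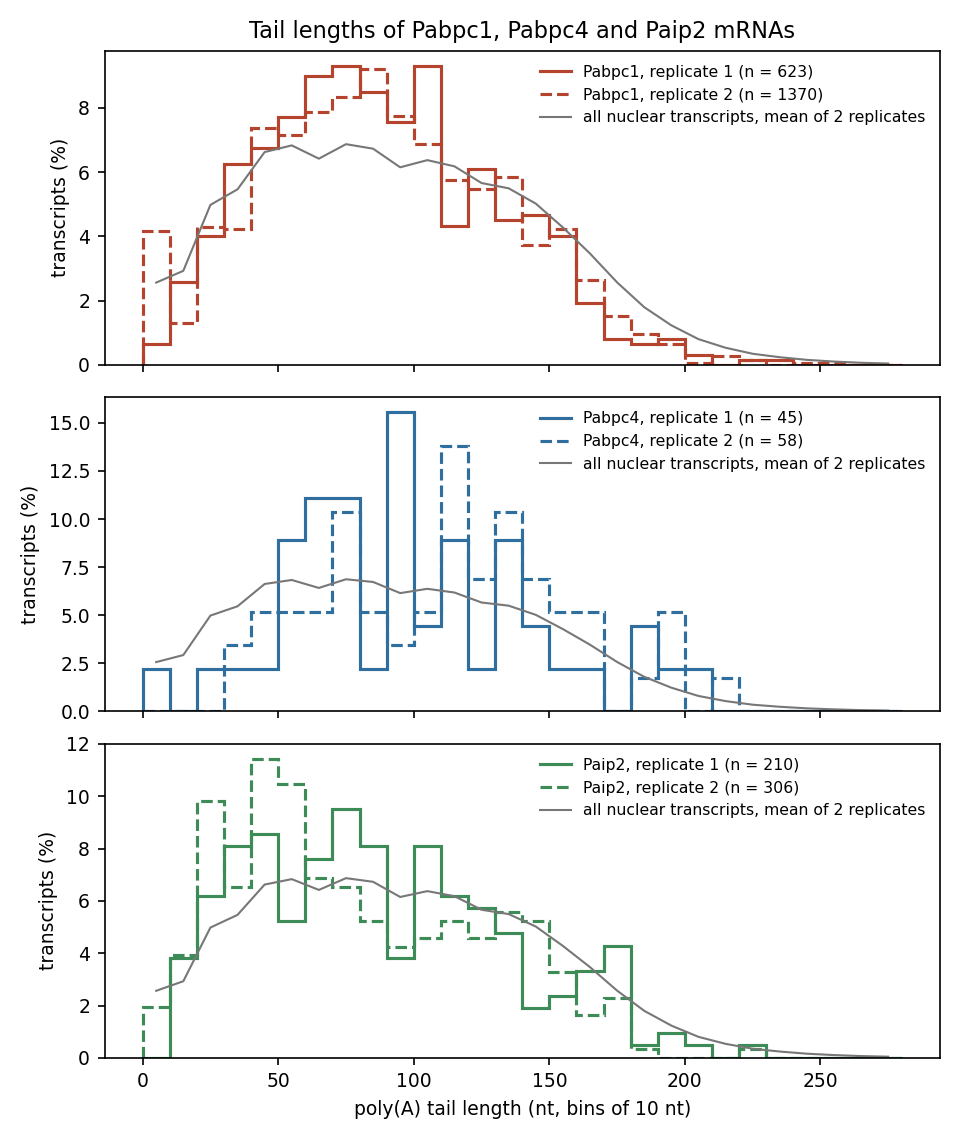
Share of transcripts (%, vertical axis, scaled separately for each gene) by poly(A) tail length (nt, bins of 10 nt, horizontal axis) for Pabpc1, Pabpc4 and Paip2, with replicate 1 as a solid and replicate 2 as a dashed outline and the mean of both replicates over all nuclear transcripts as a grey line. The 2 outlines of Pabpc1 stay close to each other and rise above the grey line between 61 and 90 nt, Pabpc4 lies to the right of it, and the fullest Paip2 bin is 71 to 80 nt in replicate 1 and 41 to 50 nt in replicate 2.

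*Pabpc1*, the main cytoplasmic poly(A)-binding protein gene, lies on chromosome 15 from 36595661 to 36609668 on the minus strand. Its tails had a geometric mean of 76.6 nt in replicate 1 and 70.4 nt in replicate 2 (73.5 ± 4.38 nt, SD, n = 2). The medians were nearly equal, at 86 and 85 nt. With both replicates pooled, the middle of the distribution ran from 56 nt at the first quartile to 121 nt at the third, and single tails ranged from 1 to 260 nt. The gene differed from the median gene by −1.40 nt in replicate 1 and by −6.37 nt in replicate 2, a mean difference of −3.89 ± 3.52 nt, and at percentile 42.1 of all genes. *Pabpc1* mRNA was thus close to the median gene of these cells in tail length, at a distance about as large as the spread between replicates.

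The shape of the *Pabpc1* distribution was narrower than that of all nuclear transcripts. Tails of 61 to 90 nt made up 26.8% of *Pabpc1* transcripts in replicate 1 (95% Wilson interval 23.5 to 30.4%) and 25.4% in replicate 2 (23.2 to 27.8%), while all nuclear transcripts had 20.1% and 20.0%. At the long end, 24.1% (20.9 to 27.6%) and 25.7% (23.4 to 28.1%) of *Pabpc1* tails were longer than 120 nt, against 32.2% and 31.6% of all. Both differences went the same way in each replicate, and the *Pabpc1* intervals did not reach the values of all transcripts. Tails longer than 200 nt were few, with 4 of 623 and 9 of 1370, or 0.642% and 0.657%, against 2.57% and 2.19%. Intervals here and below cover counting error only, not the spread between replicates. The reads carry no molecular identifiers, so copies made by cDNA amplification would be counted as separate transcripts. The intervals may therefore be too narrow.

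The difference between the *Pabpc1* geometric means came with a group of very short tails. Tails of 1 to 5 nt were 4 of 623 in replicate 1, or 0.642% (0.250 to 1.64%), and 52 of 1370 in replicate 2, or 3.80% (2.91 to 4.94%). Among all nuclear transcripts they were 1.52% and 2.75%, so this class was larger in replicate 2 there as well, but by less. The 2.75% lay below the *Pabpc1* interval of replicate 2, and the 1.52% lay inside that of replicate 1. When tails shorter than 6 nt were left out, the *Pabpc1* geometric means were 78.5 and 81.2 nt (79.9 ± 1.88 nt), beside a gene median of 80.3 and 82.1 nt. The gene stayed below the median in both replicates, and replicate 2 then had the higher value.

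*Pabpc4*, the paralog of *Pabpc1*, lies on chromosome 4 from 123262351 to 123298925 on the plus strand. It had the longest tails of the 3 measured genes, with a geometric mean of 88.4 nt in replicate 1 and 104 nt in replicate 2 (96.3 ± 11.2 nt, SD, n = 2). The medians were 95 and 117 nt, and single tails ranged from 7 to 211 nt. *Pabpc4* lay 10.4 and 27.5 nt above the median gene (18.9 ± 12.1 nt), at percentile 72.1 in replicate 1 and 91.1 in replicate 2. The size of this difference therefore depended on the replicate by more than 1.5 times, while its direction did not.

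Short tails were rare on *Pabpc4* mRNA. A stretch of about 30 nt is close to what a single cytoplasmic poly(A)-binding protein covers. Tails of 30 nt or less were 2 of 45 in replicate 1, or 4.44% (1.23 to 14.8%). They were 0 of 58 in replicate 2, where the Wilson interval of a count of 0 reaches 6.21%. All nuclear transcripts had 10.1% and 10.8%, which lies inside the first interval and above the limit of the second. Tails longer than 90 nt were 26 of 45, or 57.8% (43.3 to 71.03%), and 38 of 58, or 65.5% (52.7 to 76.4%), against 50.6% of all nuclear transcripts in each replicate. A difference from all transcripts was thus larger than counting error in replicate 2 and was not detectable at the depth of replicate 1.

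**Figure D2:**
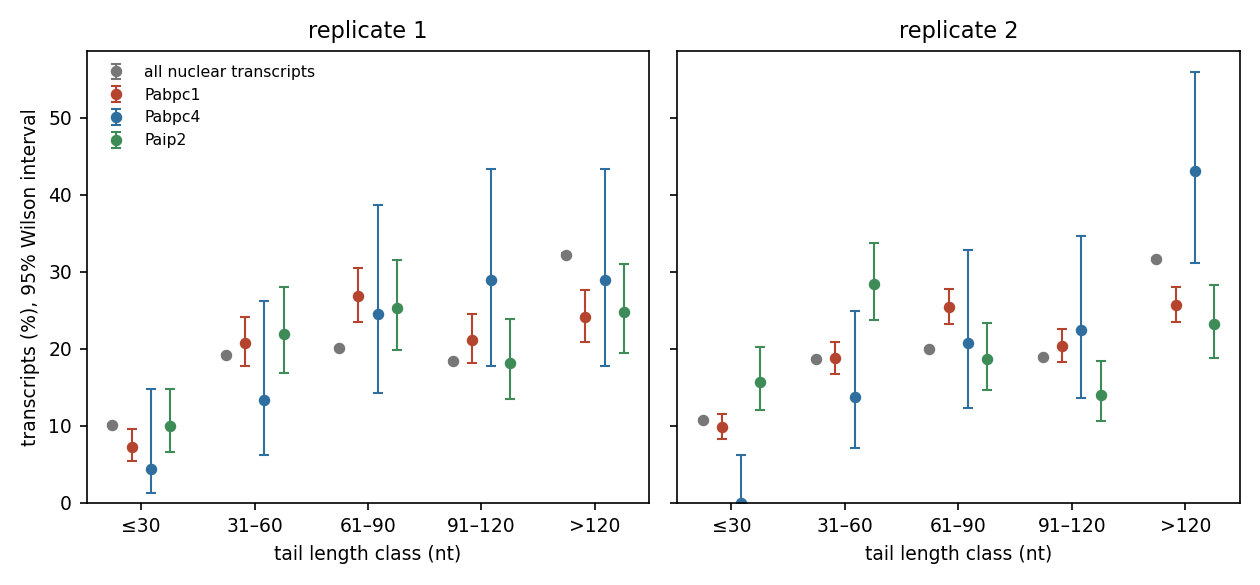
Share of transcripts (%, vertical axis) in 5 classes of tail length (nt, horizontal axis) in replicate 1 (left) and replicate 2 (right) for all nuclear transcripts, Pabpc1, Pabpc4 and Paip2, with bars for 95% Wilson intervals. Pabpc1 lies above all transcripts at 61 to 90 nt and below them over 120 nt in both panels, while Paip2 departs from them at 60 nt or less only in replicate 2 and the wide bars of Pabpc4 reflect 45 and 58 transcripts.

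*Paip2*, the gene of the Pabpc1 inhibitor, lies on chromosome 18 from 35598617 to 35617187 on the plus strand. Its 3′ part overlaps *Slc23a1* on the opposite strand, which had 0 transcripts. *Paip2* had the shortest tails of the 3 genes, with a geometric mean of 74.4 nt in replicate 1 and 63.1 nt in replicate 2 (68.8 ± 7.99 nt, SD, n = 2) and medians of 81 and 69 nt. Single tails ranged from 1 to 230 nt. *Paip2* differed from the median gene by −3.58 and −13.7 nt (−8.62 ± 7.13 nt), at percentile 33.5 of all genes with both replicates pooled.

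The replicates of *Paip2* differed in the classes of up to 90 nt. Tails of 61 to 90 nt made up 25.2% (19.8 to 31.5%) and 18.6% (14.7 to 23.4%), with the 20.1% and 20.0% of all nuclear transcripts inside both intervals. In replicate 1, 21.9% (16.8 to 28.0%) of tails had 31 to 60 nt, and 28.4% (23.7 to 33.7%) did in replicate 2, against 19.2% and 18.6% of all nuclear transcripts. Tails of 30 nt or less were 10% (6.63 to 14.8%) and 15.7% (12.0 to 20.2%), against 10.1% and 10.8%. Replicate 1 was within counting error of all transcripts in these last classes, and replicate 2 was above them in each. The scarcity of long tails was shared by the replicates, with 24.8% (19.4 to 31.02%) and 23.2% (18.8 to 28.2%) of tails over 120 nt against 32.2% and 31.6% of all. Among 715 genes of like annotated transcript length, 1192 to 1813 nt, the median tail was 84.3 nt, and *Paip2* differed from it by −16.8 nt, at percentile 15.7. *Pabpc1* and *Pabpc4* fell into the same class of length, 2813 to 3252 nt, where the median was 76.1 nt and they lay at percentiles 42.4 and 91.04.

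Between the genes, the order *Pabpc4*, *Pabpc1*, *Paip2* was the same in each replicate. *Pabpc4* tails were longer than *Pabpc1* tails by 11.8 nt in replicate 1 and 33.8 nt in replicate 2 (22.8 ± 15.6 nt), and both *Pabpc4* values were above both *Pabpc1* values. *Pabpc4* exceeded *Paip2* by 13.9 and 41.1 nt (27.5 ± 19.2 nt), again without overlap. *Pabpc1* exceeded *Paip2* by 2.18 and 7.29 nt (4.73 ± 3.61 nt), but the values overlapped, since *Paip2* in replicate 1 was above *Pabpc1* in replicate 2. The difference had the same sign in both replicates and its mean was larger than its SD, and in both genes replicate 1 had the higher value. With 2 values against 2, an exact two-sided permutation test cannot give a p below 0.333, so no p is given.

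The whole distributions were also compared by the largest gap between their cumulative curves, which runs from 0 to 1. The gap between *Pabpc1* and *Pabpc4* was 0.144 in replicate 1 and 0.260 in replicate 2. That between *Pabpc4* and *Paip2* was 0.197 and 0.331, and that between *Pabpc1* and *Paip2* was 0.0693 and 0.157. The replicates of *Pabpc4*, with 45 and 58 transcripts, were themselves 0.221 apart. Such a gap is above 0 even for equal distributions and grows as fewer transcripts are read, so gaps of genes read at different depth were not ranked.

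The genes with the most similar tail distributions were sought among nuclear genes that reached 100 transcripts in each replicate. For *Pabpc1*, these were *Hspa9*, a mitochondrial chaperone gene, at a mean gap of 0.0529, *Nono*, which encodes a nuclear RNA-binding protein, at 0.0547, and *Hnrnpf*, of the hnRNP family, at 0.0566. The median gap over 449 genes was 0.132. *Paip2* was closest to *Hsp90aa1*, a cytosolic chaperone gene, at 0.0490, to *Adss*, of purine synthesis, at 0.0490, and to *Creld2*, of the endoplasmic reticulum, at 0.0549, beside a median of 0.157. *Hsp90aa1* had tails of 71.8 and 62.1 nt. Its replicates differed in the same direction as those of *Paip2*, which follows from choosing genes by likeness within each replicate. *Pabpc4* was closest to *Vdac1*, which encodes a channel of the outer mitochondrial membrane, at 0.0774, to *Adprh*, an ADP-ribosylarginine hydrolase gene, at 0.0859, and to *Gm4737* at 0.0963, beside a median of 0.190 over 450 genes. The gaps are averages over the 2 replicates and describe likeness in tail length only, within each gene's own search.

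Bases other than A were found in about as many of these tails as of all nuclear transcripts, and only *Paip2* in replicate 2 differed from them by more than counting error. They were present in 11.6% (9.28 to 14.3%) and 9.78% (8.32 to 11.5%) of *Pabpc1* tails, against 12.2% and 9.55% of all. In *Paip2* the shares were 13.3% (9.39 to 18.6%) and 13.4% (10.03 to 17.7%). The second of these intervals lay above the value of all transcripts in replicate 2, and the first did not. In *Pabpc4* they were 6 of 45, or 13.3% (6.26 to 26.2%), and 5 of 58, or 8.62% (3.74 to 18.6%).

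T was the most frequent of these bases in *Pabpc1* and *Paip2*. The 206 *Pabpc1* tails with a base other than A held 286 such bases, of which 161 were T, 60 C and 65 G, and 72 of the 286 stood at the last base of the tail. The 69 such tails of *Paip2* held 96, of which 54 were T, 20 C and 22 G, with 30 at the last base. The first base of a tail was other than A in 10 of 1993 *Pabpc1* tails, or 0.502% (0.273 to 0.921%). It was so in 0 of 516 *Paip2* tails, where the Wilson interval of a count of 0 reaches 0.739%. The 0.617% of all nuclear transcripts lay inside both intervals. In *Pabpc4* the 11 tails held 1 such base each, 3 T, 6 C and 2 G, and 5 of the 6 with C were in replicate 1. Too few *Pabpc4* tails were read to order its bases.

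A T at the very end of a short tail is the form that the U bases added by terminal uridylyltransferases take in cDNA. Among tails of 6 to 30 nt, the last base was T in 4 of 41 *Pabpc1* tails in replicate 1, or 9.76% (3.86 to 22.5%), and in 5 of 82 in replicate 2, or 6.10% (2.63 to 13.5%). All nuclear transcripts of this length ended in T in 18.3% and 13.4% of tails, above the *Pabpc1* values in each replicate but inside the interval of both. With the replicates pooled, 9 of 123 *Pabpc1* tails, or 7.32% (3.897 to 13.3%), ended in T, and the 15.2% of all nuclear transcripts lay outside that interval. The pooled interval leaves out the spread between replicates, so a lower share in *Pabpc1* was not shown within either replicate. In *Paip2*, 4 of 21 tails, or 19.0% (7.67 to 40.0%), and 8 of 44, or 18.2% (9.51 to 32.0%), ended in T, with the values of all transcripts inside both intervals. In tails longer than 60 nt the share fell to 2.23% and 1.84% in *Pabpc1*, to 2.10% and 2.92% in *Paip2*, and to 2.23% and 1.39% in all nuclear transcripts.

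**Figure D3:**
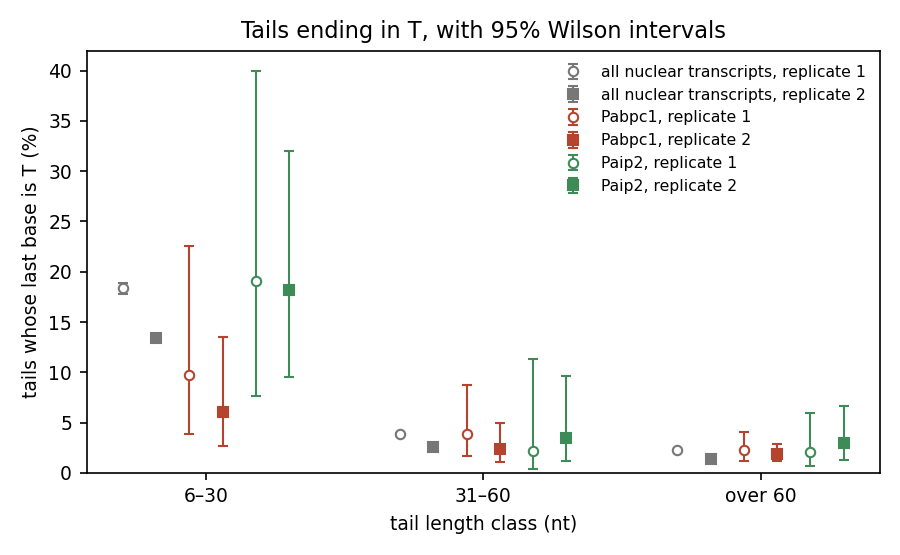
Share of tails whose last base is T (%, vertical axis) in 3 classes of tail length (nt, horizontal axis) for all nuclear transcripts, Pabpc1 and Paip2, with open circles for replicate 1, filled squares for replicate 2 and bars for 95% Wilson intervals. The share is highest at 6 to 30 nt, where Pabpc1 lies at 9.76 and 6.10%, Paip2 at 19.0 and 18.2% and all nuclear transcripts at 18.3 and 13.4%.

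The remaining genes of the pathway were described from a list of 36 genes written from their known roles, with earlier results of these data in view. The list held 7 other poly(A)-binding proteins, the second inhibitor *Paip2b*, 22 proteins that bind cytoplasmic poly(A)-binding protein, and 6 factors of nuclear polyadenylation. No transcript was read for 3 of them, *Pabpc2*, *Pabpc5* and *Pabpn1l*, and 8 had fewer than 10. The other 25 had a median tail length of 66.8 nt, a difference of −9.61 nt from the median gene that was −4.10 nt when tails shorter than 15 nt were left out, and 20 of the 25 (80%) lay below it and 5 above, beside 50% of all genes. Among 21 that reached 10 transcripts in each replicate, 12 lay below the median in both and 1 above it in both, beside 33.4% and 35.7% of all genes with that depth. The longest annotated transcript of these genes had a median of 4575 nt, against 3252.5 nt over all genes, and the part of transcript length in the tail difference was not tested.

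By class and with replicates pooled, 5 of 6 factors of nuclear polyadenylation lay below the median gene, with a median of 63.7 nt. Of 5 with 10 transcripts in each replicate, 3 lay below it in both and 0 above it in both. Of the 17 measured binding partners of cytoplasmic poly(A)-binding protein, 14 lay below it when pooled, with a median of 66.8 nt. Of 14 with that depth in each replicate, 8 lay below it in both and 0 above it in both. Over all genes, 50% lay below when pooled and 33.4% in both replicates. The only other poly(A)-binding protein gene with enough transcripts was *Zc3h14*, a nuclear poly(A)-binding zinc finger protein, with 73.9 and 73.5 nt. Among the 20 genes with at least 30 transcripts, the shortest tails were those of *Larp4*, which binds both poly(A) and Pabpc1, at 45.7 and 46.0 nt (45.9 ± 0.235 nt). *Wdr33*, which recognises the polyadenylation signal, followed with 73.3 and 36.3 nt, and then *Eif4g1*, which encodes the initiation factor eIF4G1, with 76.1 and 53.8 nt. The median *Eif4g1* tail, 90 nt, was close to the median of 89 nt over the genes' own medians, so this gene was short by the geometric mean only. *Wdr33* and *Eif4g1* were short in replicate 2 and close to the median gene in replicate 1, so of these 3 only *Larp4* was as short in replicate 1 as in replicate 2.

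The longest tails of the list were those of *Paip2b*. They measured 123 nt in replicate 1 (17 transcripts) and 122 nt in replicate 2 (32 transcripts), or 122 ± 1.26 nt (SD, n = 2), at percentile 98.7 of all genes. None of its 49 tails had 30 nt or less, where the Wilson interval of a count of 0 reaches 7.27%. Of the 49, 32 (65.3%, 51.3 to 77.1%) were longer than 120 nt. *Paip2b* exceeded its paralog *Paip2* by 48.9 and 58.4 nt (53.7 ± 6.73 nt), so the 2 inhibitor mRNAs lay further apart than *Pabpc4* and *Pabpc1* did in either replicate. *Gspt2*, a gene of translation termination factor eRF3, had 59.0 and 104 nt, and *Cpsf1*, of the cleavage and polyadenylation factor, had 117 and 56.2 nt. For both of these, the replicates lay on opposite sides of the median gene.

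**Figure D4:**
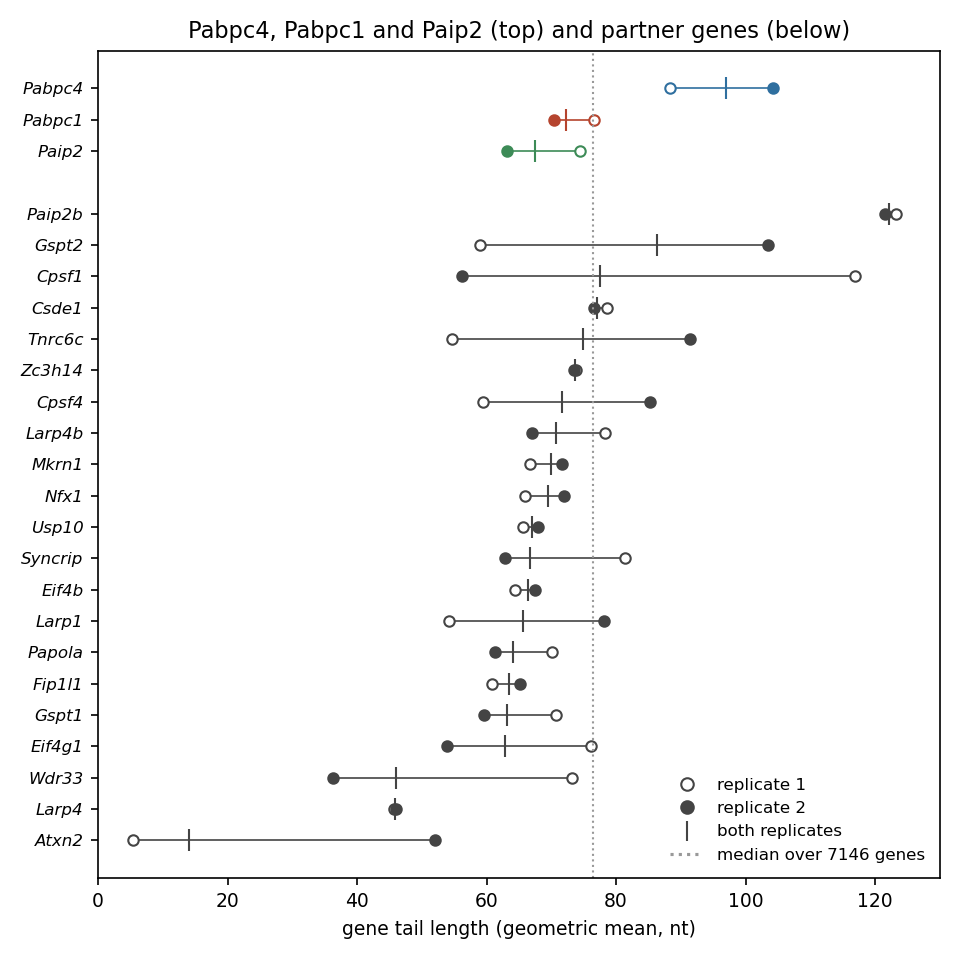
Gene tail length (geometric mean, nt, horizontal axis) of Pabpc4, Pabpc1 and Paip2 (top, coloured) and of the 21 partner genes that reached 10 transcripts in each replicate (below, grey), with open circles for replicate 1, filled circles for replicate 2, ticks for both replicates pooled and a dotted line at the median gene. Paip2b stands apart at 122 nt with replicates close together, while Atxn2 at 14.0 nt, Wdr33 and Cpsf1 have replicates far apart.

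Some reads of *Pabpc1* and *Pabpc4* could have come from near-identical copies, because reads were assigned to genes by alignment. Counted as at least 200 shared stretches of 31 bases in annotated transcripts, 2 processed pseudogenes resemble *Pabpc1* and 8 resemble *Pabpc4*. They had 21 and 11 transcripts of their own, against 1993 and 103. *Gm16580*, which resembles *Pabpc1*, had a tail length of 77.1 nt with both replicates pooled. *Paip1* and *Paip2* had no such copy.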

How the data were processed

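PAIso-seq of 1 sample with 2 barcoded replicates was used. The authors made circular consensus reads, split them by barcode, mapped them to mm10 with minimap2 2.17, took the soft-clipped 3′ bases as tails, dropped reads without a tail and assigned genes with featureCounts 2.0.1. The deposited table gives, for each read, its passes, its counts of A and of each other base in the tail, and the tail itself, without normalization. Tail length was the count of all tail bases. Reads with at least 7 passes were kept. A gene's tail length was the geometric mean over at least 10 transcripts, mitochondrial genes apart. Of 12962 gene identifiers, 12955 were found in GENCODE vM21.

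The 5 genes, the gene lists and the alternatives were chosen with earlier results of these data known. Of the partner list, the 3 longest and 3 shortest tails with at least 30 transcripts were named, and for each member that reached 30 transcripts in each replicate the 3 genes with the closest tail distribution. *Atxn2*, in a caption, and *Zc3h14*, the sole measured gene of its class, were named after their values were seen. With 1 group, no test between samples was made. Errors are the SD of 2 replicates, which may be technical, and 95% Wilson intervals. The geometric mean per gene was tested on simulated tails, which had no separate class of very short tails. The shares, gaps and base counts were not tested in this way. Alternatives changed the pass minimum, the shortest tail, the summary per gene, the genes compared with, the bases counted, reads sharing a sequencing well, and the replicates. Analyses ran in Python 3.11.15 with scipy 1.17.1, pandas 2.3.3 and numpy 2.4.6, and figures in matplotlib 3.10.9.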

Additional observations from a re-analysis of the deposited data

Results flagged for a closer look

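Reads with fewer than 7 passes entered none of the values above, and 237 of them came from the 5 genes, 76 in replicate 1 and 161 in replicate 2. They are listed because they hold signal outside the main measurement. *Pabpc1* had 188 with a median tail of 90 nt, *Paip2* had 39 with 78 nt and *Pabpc4* had 10 with 102 nt. The order of the 3 genes was the same as in the reads with more passes. *Pabpn1* and *Paip1* had no such read.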

How the results depend on the processing

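Of 140 recomputed values, 14 moved by at least the spread between replicates (1 SD) and 126 were kept as the same. With a replicate left out, that spread came from the same 2 replicates. Those labels were therefore nearly fixed in advance and do not show robustness. The count of genes below the median has no such spread and was kept as the same because it did not change. Only differences, not shares or counts, could change direction, and 0 did. With a replicate left out they could hardly do so, since the rule required the same sign in both replicates. Relative to the median gene, *Pabpc1* ranged from −6.37 to −0.842 nt, *Paip2* from −13.7 to −3.58 nt and *Pabpc4* from 10.4 to 27.5 nt, and 2 genes lay below it under all 15 alternatives. *Pabpc1* minus *Pabpc4* ranged from −33.8 to −11.8 nt. With both end bases of each tail left out, bases other than A were in 7.78% of *Pabpc1* and 9.50% of *Paip2* tails. The replicates of *Paip2* happened to differ by little in this share, so small changes exceeded their SD, at 13.7% with no pass minimum, 13.2% with at least 8 passes, 13.6% with at least 15 passes, 13.5% with tails of at least 6 nt, 13.2% with tails of at least 15 nt and 13.7% in wells with 1 transcript. *Pabpc1* tails of 30 nt or less were 6.35% of tails of at least 6 nt and 5.96% of tails of at least 15 nt, by construction of that minimum. The difference of the partner list from the median gene was −9.61 nt, and it was −4.10 nt with tails of at least 15 nt, −6.94 nt with arithmetic means and −8 nt with medians per gene. Leaving out a replicate gave −11.3 to −9.27 nt for that list. The cause was not tested. *Paip1* minus *Paip2* could not be computed, because *Paip1* had 3 transcripts. No paired analysis was possible because only 1 group was sampled. Depth left *Pabpn1* and *Paip1* without a tail length, and *Pabpc4* rests on 103 transcripts.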
